A study of Homo sapiens with 12 samples.

Results

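The miR-30 and miR-26 families were followed through 7 guide strands, hsa-miR-30a, hsa-miR-30b, hsa-miR-30c, hsa-miR-30d, hsa-miR-30e, hsa-miR-26a and hsa-miR-26b (written below without the species prefix), out of 851 human microRNA names on a 1-colour Agilent array. They were taken by name, and no measured value entered the choice. All samples came from SUM159, a line of human triple-negative breast cancer cells, carrying PLKO.1 lentiviral constructs. There were 4 groups of 3 biological replicates each: Dicer shRNA cells with 0.5 mM metformin, control shRNA cells with 0.5 mM metformin, Dicer shRNA cells with vehicle (PBS), and control shRNA cells with vehicle. Treatment lasted 24 h in all groups, and every line carried a stably integrated shRNA, scrambled in the controls. Whether the lines were clones or pools is not given in the sources used here. Dicer, the enzyme that cuts precursors into mature microRNAs, has no probe on this array, so its knockdown was not checked. Slide 2 held every metformin array and slide 1 every vehicle array, which means that metformin and slide cannot be told apart. On each slide the control shRNA arrays came before the Dicer shRNA arrays, and the effect of that position cannot be told apart from that of the line. Titles, characteristics and descriptions give the same groups, but the source names call the metformin samples of the control shRNA line untreated controls and those of the Dicer shRNA line treated controls. If the source names were right, each comparison below that uses a metformin array would be between other groups.

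MicroRNAs of the miR-30 family share a seed, the stretch at the 5′ end that pairs with target mRNAs, and have been linked in breast tumour cells to loss of self-renewal and of a mesenchymal state. The miR-26 family, with a different seed, targets the chromatin modifier EZH2 and cell-cycle regulators, and its genes sit in introns of the CTDSP phosphatase genes. Both families are known as microRNAs that the transcription factor MYC holds down. Each hairpin precursor yields a guide strand, which is loaded and kept, and a passenger strand, marked here with an asterisk, which is mostly degraded.

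The guide sequences show which members a probe has to tell apart. RefSeq (GRCh38.p14) held 5 of the 7 guides under their present names, in which the guide is the 5p strand. They are written 5′ to 3′ with the seed, bases 2 to 8, in capitals.
miR-30a: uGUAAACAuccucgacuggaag
miR-30e: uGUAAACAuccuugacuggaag
miR-30c: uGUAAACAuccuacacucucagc
miR-26a: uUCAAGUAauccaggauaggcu
miR-26b: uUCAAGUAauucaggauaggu
Counted from the 5′ end, miR-30a and miR-30e differ by the single substitution C13U and are identical at the other 21 of 22 bases. miR-30c shares its first 12 bases with both. miR-26a and miR-26b share their first 10 bases and are identical at 19 of the 21 bases that both have. Cross-hybridisation between such near copies was not tested.

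The genes lie on several chromosomes, and some of them are near neighbours. On GRCh38.p14 the miR-30a guide lies at chr6:71403595-71403616 on the minus strand, outside any other annotated gene. The miR-30e guide, at chr1:40754371-40754392, and 1 copy of miR-30c, at chr1:40757300-40757322, both lie on the plus strand within the span of NFYC, a gene for a subunit of a CCAAT-binding factor. The other miR-30c copy is at chr6:71377003-71377025 on the minus strand, near miR-30a and on the same strand. The miR-26a guide is encoded at chr3:37969413-37969434 within CTDSPL on the plus strand and at chr12:57824658-57824679 within CTDSP2 on the minus strand. miR-26b is encoded at chr2:218402657-218402677 within CTDSP1 on the plus strand. Since the arrays name only the mature strand, the copies of miR-30c and of miR-26a are measured together.

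The members fell into 3 classes by detection. miR-30a and miR-30d were detected on all 12 arrays. miR-26a was detected on 6, miR-30e on 4, and miR-30b and miR-30c on 3 each, and the metformin arrays detected none of these 4. miR-26b was detected on none of the 12 arrays and was not tested. Signals below are intensities scaled to the 75th percentile of the 98 human microRNAs detected on every array, with a floor of 3.01 (log2 1.59) for dim or undetected ones. Signals of different microRNAs come from different probes and are not set against each other.

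**Figure D1:**
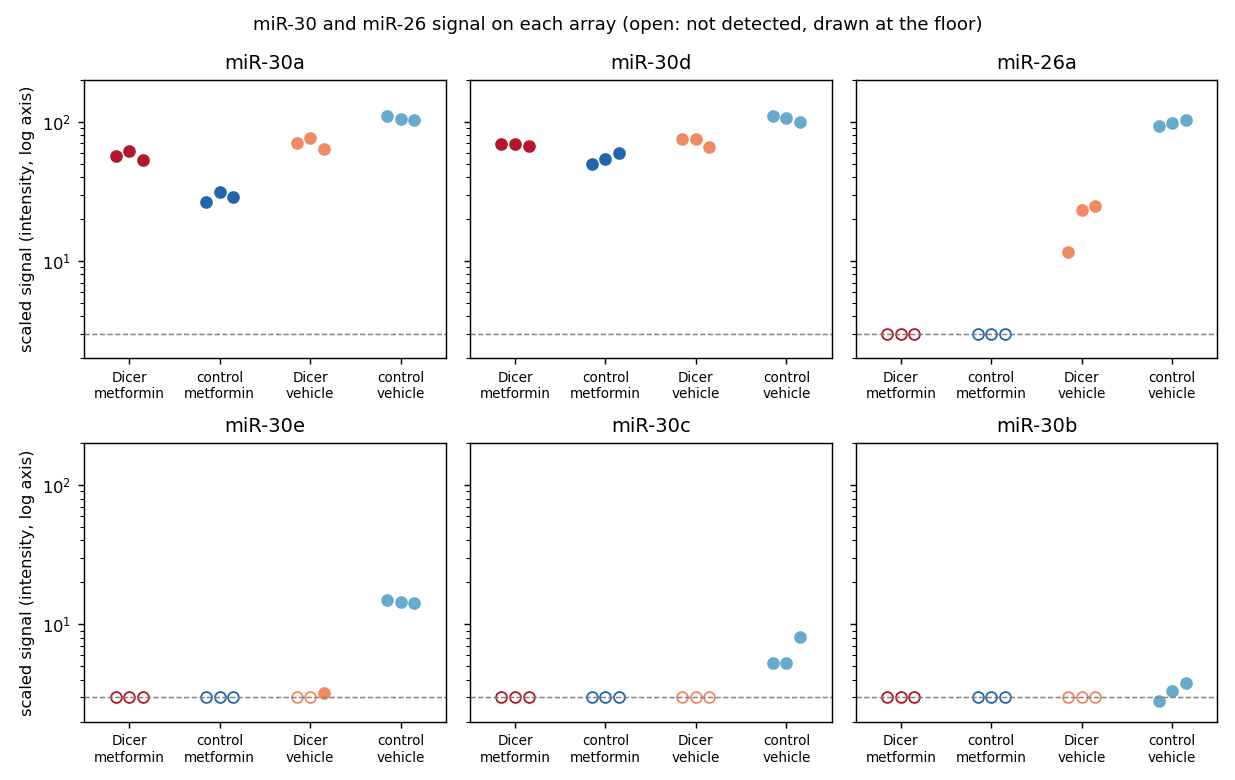
Scaled signal (intensity, log axis) of 6 members on each of the 12 arrays, by group; filled points were detected, open points were not and are drawn at the floor of 3.01 (dashed line). miR-30a and miR-30d stay above the floor in all groups, while the other 4 members are detected on vehicle arrays alone.

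The arrays as a whole detected 130 to 204 human microRNAs each, and the test covered the 208 microRNAs that every array of 1 group or more detected. Of 8 markers of a mesenchymal breast line, 7 were detected on all control shRNA vehicle arrays and miR-31 on no array. Their summed signal was 532 to 657 in Dicer shRNA cells and 191 to 327 in control shRNA cells with metformin, and 910 to 1087 in Dicer shRNA cells and 2564 to 2865 in control shRNA cells with vehicle. On control shRNA metformin arrays only 5 of the 8 were detected on all 3 arrays. None of 5 epithelial miR-200 family markers was detected in any group. Of 7 blood markers, 2 were detected in control shRNA cells with metformin, with a summed signal of 15.2 to 20.4, and none in the other groups. Of 3 brain markers only miR-128 was detected, on all control shRNA vehicle arrays (5.10 to 7.05) and in no other group. The liver marker miR-122 was not detected. With metformin the summed signal of 6 muscle markers was 7.74 to 21.1 in Dicer shRNA cells and 24.9 to 29.9 in control shRNA cells. With vehicle it was 0 to 6.52 in Dicer shRNA cells and 0 to 4.41 in control shRNA cells. Of these markers miR-1, miR-206, miR-208a and miR-499-5p were not detected in any group. The other 2 were detected on all control shRNA metformin arrays. The mesenchymal sum took the same order of groups as miR-30a, and the part of these signals in the results was not tested. Each change is a difference in log2 signal, given with its SE from limma (n = 3 arrays in each group), and was called where the p adjusted over the 208 by Benjamini-Hochberg was under 0.05. The number of arrays limits the precision of every value, and the p-values measure the spread between these samples. In such bulk RNA, fewer cells that hold a microRNA and less of it per cell cannot be told apart.

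The first comparison set Dicer shRNA against control shRNA cells without metformin. miR-26a fell the most among the members measured on all 6 vehicle arrays, and miR-30a and miR-30d fell by less, though scaling to the hur control features, whose nature the files do not state, turned the sign of both. miR-26a had signals of 11.6, 23.3 and 24.96 in Dicer shRNA cells, against 93.2, 97.1 and 102 in control shRNA cells. The 2 groups did not overlap, as for 63.0% of the 208 tested, and Dicer shRNA replicate 1 was the lowest array. The change was -2.36 ± 0.23, a 5.15-fold lower signal in Dicer shRNA cells (adjusted p 1.93e-05, limma), where 38.0% of the 208 were called lower. It was -2.02 without Dicer shRNA replicate 1, and -3.24 to -1.61 over the scalings tried. The metformin arrays, all at the floor for miR-26a, lend the main fit no spread. Fitted on the 6 vehicle arrays alone, the change was -2.36 ± 0.33 (adjusted p 0.0043, limma).

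miR-30a had signals of 64.1, 69.8 and 76.1 in Dicer shRNA cells and 102, 104 and 111 in control shRNA cells with vehicle. miR-30d had 66.1, 74.6 and 75.3 in Dicer shRNA cells and 99.8, 106 and 109 in control shRNA cells. For both, the groups did not overlap. miR-30a fell by 0.60 ± 0.10 (adjusted p 5.1e-04, limma), though it was 0.16 after scaling to the hur control features and did not pass after quantile normalization (-0.08). miR-30d fell by 0.55 ± 0.09 (adjusted p 5.4e-04, limma), though it was 0.21 after scaling to the hur features and 0.0042 after quantile normalization, neither called. Of the 98 microRNAs detected on all arrays, 23.5% were called lower and 40.8% higher in this comparison, and 68.4% had groups that did not overlap.

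The 3 dim members were detected mainly in control shRNA cells with vehicle, and they entered the test through that group, so their loss elsewhere is partly fixed by the detection filter. miR-30e had 1 detected signal, 3.23, in Dicer shRNA cells, against 14.2, 14.5 and 14.95 in control shRNA cells with vehicle. It fell by 2.24, a value limited by the floor, on which 2 of the 3 Dicer shRNA arrays lay. Because of the filter, no p is given for the fall of miR-30e or miR-30c. miR-30c was not detected in Dicer shRNA cells and had 5.28, 5.29 and 8.10 in control shRNA cells, and so was at least 1.88-fold lower in Dicer shRNA cells. With the floor at 2 times its value, miR-30c did not pass (-0.14), nor did it after scaling to the hur features (-0.008). miR-30b was not detected in Dicer shRNA cells and had 2.81, 3.31 and 3.80 in control shRNA cells, 1 of them under the floor. Its bound was 1.04-fold lower in Dicer shRNA cells, and it did not pass (adjusted p 0.16, limma), but it passed with viral scaling (-0.91) and with an offset of 16 (-0.26). Its raw control shRNA signals of 3.16, 3.96 and 4.31 carried stated errors of 0.977, 0.830 and 1.06.

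Other features moved in the same comparison. The 4 hur control features detected on all arrays changed by -1.22 to -0.17 (median -0.81), all lower in Dicer shRNA cells. Probes for viral microRNAs, of which 10 gave signal on every array, changed by 0.17 to 1.67 (median 0.87). The median of the 98 microRNAs was 0.33, and 80 of the 98 had a higher change than miR-30a and 78 a higher one than miR-30d. Relative to that median, miR-30a changed by -0.93 and miR-30d by -0.88. A factor per array cannot move these differences, except through the floor. The part of the hur and viral signals in the changes of the families was not tested.

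Under metformin the same comparison ran the other way for both members that could be measured, except where another scaling turned the sign, as given with each. miR-30a had signals of 53.1, 56.5 and 61.9 in Dicer shRNA cells, against 26.7, 28.8 and 31.2 in control shRNA cells. The groups did not overlap, and miR-30a rose by 0.98 ± 0.10, or 1.98-fold (adjusted p 3.1e-05, limma), though it was -0.73 after scaling to the hur features. miR-30d had signals of 66.4, 69.0 and 69.3 in Dicer shRNA cells and 49.8, 54.0 and 59.5 in control shRNA cells, without overlap. miR-30d rose by 0.33 ± 0.09 (adjusted p 0.019, limma), though median scaling gave -0.075, quantile normalization -0.021 and hur scaling -1.39. The miR-30d call was also lost when control shRNA replicate 1 (0.27), Dicer shRNA replicate 1 (0.32) or Dicer shRNA replicate 2 (0.32) on the metformin slide was left out, and narrowly when only the 98 microRNAs were tested (adjusted p 0.0504, limma). Among the 98 microRNAs, 19.4% were called higher and 24.5% lower, and 68.4% had groups that did not overlap. miR-26a, miR-26b, miR-30b, miR-30c and miR-30e were detected in neither metformin group and have no fold there. The hur features changed by 0.39 to 2.60 (median 1.95), and the viral probes had a median of -0.49. miR-30a lay 1.31 and miR-30d 0.66 above the median change of the 98, which was -0.33.

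**Figure D2:**
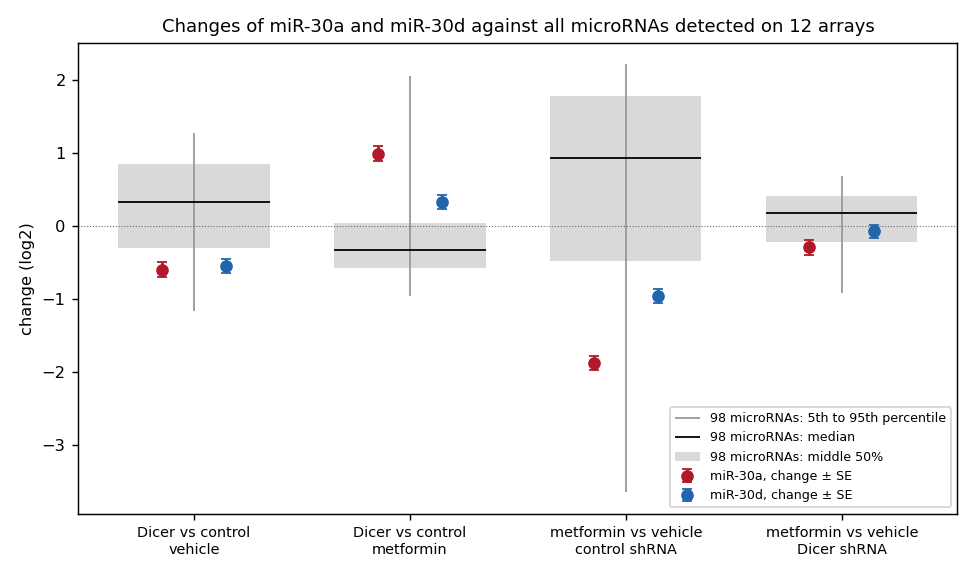
Change (log2, point ± SE) of miR-30a and miR-30d in 4 comparisons, drawn over the changes of the 98 microRNAs detected on all 12 arrays (grey box, middle 50%; line, 5th to 95th percentile; black bar, median). Both members lie below the median in 3 comparisons and above it in Dicer shRNA against control shRNA cells with metformin.

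Averaged over both slides, with slide as a block, these opposite changes left small values. miR-30a averaged 0.19 ± 0.07 (adjusted p 0.046, limma), with -0.60 on slide 1 and 0.98 on slide 2. That call was lost in 8 of the 12 fits that left out 1 array, and under no scaling, viral scaling, an offset of 16, the test of only those detected on all arrays, and the series matrix. With median scaling the average was -0.21 and with hur scaling -0.29. miR-30d averaged -0.11 ± 0.07 (adjusted p 0.21, limma; 95% interval -0.26 to 0.04), and was -0.59 to -0.0086 over the other scalings, called lower with median, viral and hur scaling. Of the 98 microRNAs, 22.4% were called higher and 9.18% lower on average. For miR-26a, miR-30c and miR-30e, not detected on slide 2, the average only restates slide 1.

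The second comparison set metformin against vehicle in control shRNA cells, where the signals of miR-30a and miR-30d with metformin were the lowest of the 4 groups, though hur scaling turned the sign of both changes. miR-26a was detected on none of the metformin arrays and had 93.2, 97.1 and 102 with vehicle. With the main floor and scaling it was at least 32.4-fold lower with metformin. Its log2 change was -5.02 there, and -6.48 to -2.82 over the alternatives of scaling, floor, filter and fit. miR-26a entered the test through the vehicle groups, so this direction was partly fixed by the detection filter, and no p is given. miR-30a, at 26.7, 28.8 and 31.2 with metformin and 102, 104 and 111 with vehicle, fell by 1.87 ± 0.10, or 3.66-fold (adjusted p 3.8e-08, limma), though it was 1.52 after scaling to the hur features. miR-30d, at 49.8, 54.0 and 59.5 with metformin and 99.8, 106 and 109 with vehicle, fell by 0.95 ± 0.09, or 1.94-fold (adjusted p 4.2e-06, limma), though quantile normalization gave 0.19 and hur scaling 2.44. For each of the 3 members the metformin and vehicle arrays did not overlap, as was the case for 91.8% of the 208 tested and 92.9% of the 98 detected on all arrays. miR-30e was at least 4.83-fold and miR-30c at least 2.03-fold lower with metformin, with all metformin arrays at the floor. Both entered the test through control shRNA cells with vehicle alone. miR-30c did not pass with the floor at 2 times its value (-0.14) or with hur scaling (-0.008). The miR-30e change was -2.27, and -3.84 to -0.86 over the alternatives. miR-30b did not pass, with a bound of 1.12-fold lower, but passed with viral scaling (-0.91) and an offset of 16 (-0.26). In this comparison 88.0% of the 208 passed, 40.4% lower and 47.6% higher, and of the 98 detected on all arrays 25.5% were lower and 62.2% higher.

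The 4 hur features changed by -5.03 to -0.86 in this comparison (median -3.84), and the 10 viral probes had a median of 1.38. In the same groups hur_2 had scaled signals of 16133 to 23057 with metformin and 163675 to 171981 with vehicle. miR-30a changed by less than hur_2, hur_4 and hur_6 and by more than hur_1. The median change of the 98 microRNAs was 0.93, and 85 of the 98 had a higher change than miR-30a and 77 a higher one than miR-30d. Since each group lies on 1 slide, no fit with slide as a term can be had.

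**Figure D3:**
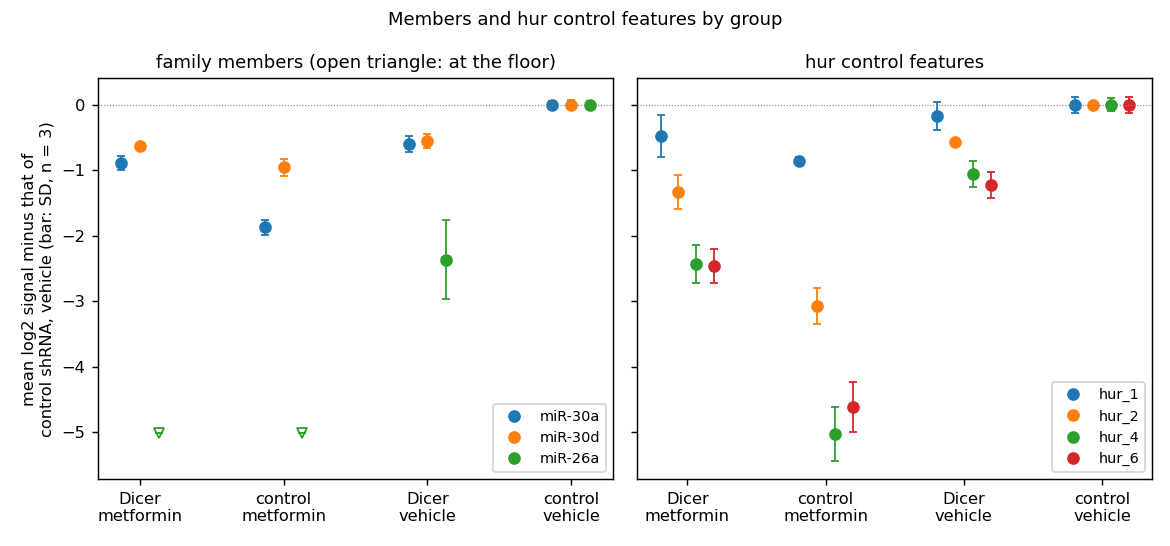
Mean log2 signal of miR-30a, miR-30d and miR-26a (left) and of 4 hur control features (right) in each group, minus the mean in control shRNA cells with vehicle; bars are SD (n = 3) and open triangles mark groups in which no array detected the microRNA. With the 75th percentile scaling the groups take the same order for miR-30a and for the hur features, lowest in control shRNA cells with metformin.

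In Dicer shRNA cells metformin and vehicle arrays were compared in the same way, and the difference between the lines was tested afterwards. miR-26a was again not detected with metformin and had 11.6, 23.3 and 24.96 with vehicle. With the main floor and scaling it was at least 6.28-fold lower with metformin. Its log2 change was -2.65 there, and -4.05 to -1.14 over the alternatives. Here too the detection filter partly fixed the direction for miR-26a, and no p is given. miR-30a had 53.1, 56.5 and 61.9 with metformin and 64.1, 69.8 and 76.1 with vehicle. Those groups did not overlap, as for 52.0% of the 98, yet the change of -0.29 ± 0.10 did not pass (adjusted p 0.062, limma). It passed with no scaling (-0.44) and with an offset of 16 (-0.23), a floor at 2 times its value, array weights (-0.32) or all microRNAs detected on 1 array or more. It was 0.63 and passed with hur scaling, and was 0.33 in the series matrix. miR-30d had 66.4, 69.0 and 69.3 with metformin and 66.1, 74.6 and 75.3 with vehicle, overlapping groups. Its change was -0.08 ± 0.09 (adjusted p 0.69, limma), with a 95% interval of -0.29 to 0.13. Its change was 0.84 with hur scaling and 0.54 in the series matrix, both called. miR-30e was detected on 1 vehicle array and no metformin array and did not pass, and miR-30b and miR-30c were detected in neither group. Of the 98 microRNAs 16.3% were called lower and 11.2% higher, and the hur features had a median of -0.999.

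**Figure D4:**
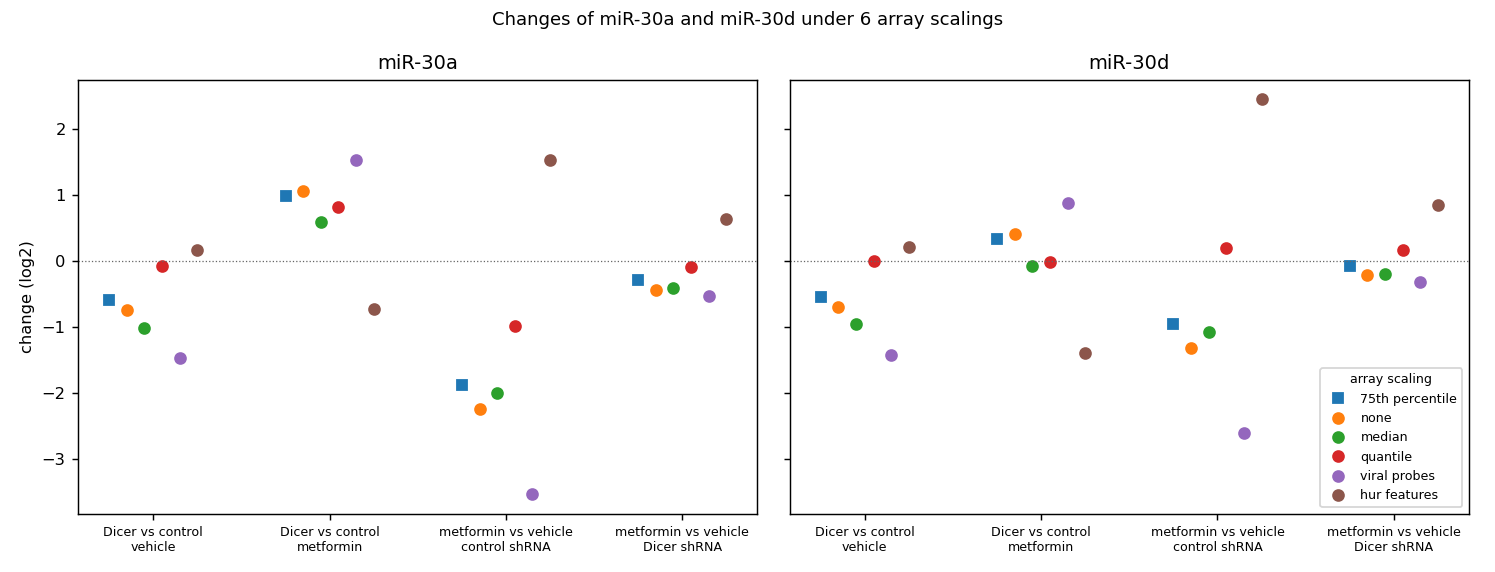
Change (log2) of miR-30a (left) and miR-30d (right) in 4 comparisons under 6 ways of scaling the arrays (square, the 75th percentile scaling used in the text; circles, the others). Scaling to the hur features turns the sign for both members in each of the 4 comparisons, and quantile normalization turns it for miR-30d in each of them.

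The knockdown differences on the 2 slides were then compared directly. For miR-30a the knockdown difference under metformin exceeded that under vehicle by 1.58 ± 0.14 (adjusted p 6.0e-06, limma), and for miR-30d by 0.88 ± 0.13 (adjusted p 2.1e-04, limma). These are equally the differences between the metformin changes of the 2 lines. Of the 208 microRNAs 76.4% were called in this contrast, and of the 98 detected on all arrays 71.4%, with 21.4% positive. The miR-30a value was -0.89 after scaling to the hur features, and the miR-30d value was -0.026 with quantile normalization and -1.60 with hur scaling. The hur features had a median of 2.84 here. Over the 98 microRNAs the median was -0.68, and miR-30a stood 2.26 and miR-30d 1.56 above it.

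A comparison that no scaling by a factor per array can move is the ratio of 2 members on the same array. The size of such a ratio depends on the probes, and differences between groups show unequal change of the 2 members. The log2 ratio of miR-30a to miR-30d was -0.32, -0.29 and -0.16 in Dicer shRNA cells with metformin and -1.04, -0.90 and -0.79 in control shRNA cells with metformin. With vehicle it was -0.11, -0.04 and 0.03 in Dicer shRNA cells and -0.03, 0.02 and 0.04 in control shRNA cells. The 4 groups fell into 3 levels, since both vehicle groups overlapped and each metformin group stood apart. How many other pairs of microRNAs separate the groups in this way was not tested.

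Metformin arrays had the lower ratio in both lines, by 0.22 in Dicer shRNA cells and by 0.92 in control shRNA cells. Among the 98 microRNAs detected on all arrays, the metformin changes had quartiles of -0.22 and 0.40 in Dicer shRNA cells. In control shRNA cells the quartiles were -0.48 and 1.78. In each line the ratio differed by less than the distance between these quartiles, so its size does not set this pair apart. Permuted within each line, the mean difference of -0.57 had an exact two-sided p of 0.005, the smallest that 400 arrangements allow (adjusted p 0.04 over 8 exact tests). Permuted within each slide, the mean knockdown difference of 0.30 did not pass (exact two-sided permutation p 0.085, adjusted 0.114). Within a single line 3 against 3 arrays cannot go below an exact p of 0.10, which both lines reached. From control shRNA to Dicer shRNA cells the ratio differed by -0.05 with vehicle (exact permutation p 0.40) and by 0.66 with metformin (exact permutation p 0.10, the smallest possible). On the vehicle slide miR-26a could be set against both miR-30 members in the same way. The log2 ratio of miR-26a to miR-30a averaged -1.89 ± 0.63 in Dicer shRNA cells and -0.12 ± 0.12 in control shRNA cells (SD, n = 3; exact permutation p 0.10, the smallest possible). Against miR-30d the difference was -1.82 (exact permutation p 0.10), and in both ratios the Dicer shRNA arrays lay below all control shRNA arrays.

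**Figure D5:**
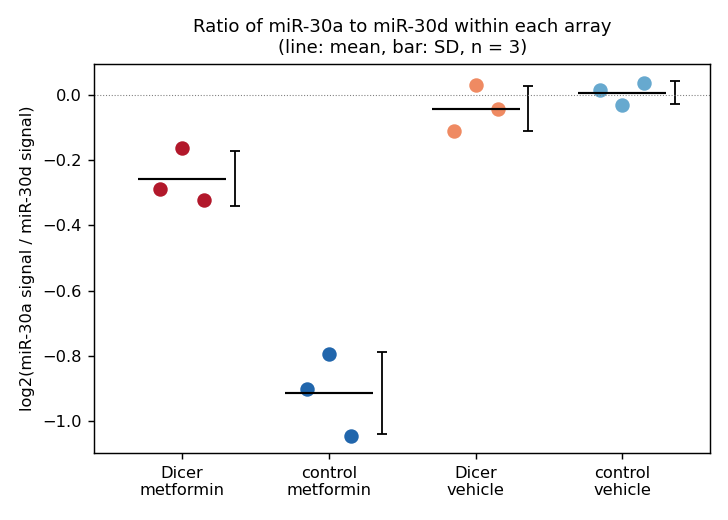
Log2 ratio of the unscaled miR-30a signal to the unscaled miR-30d signal on each of the 12 arrays by group, with the mean (line) and SD (bar, n = 3). Both vehicle groups sit near 0, Dicer shRNA cells with metformin average -0.26 and control shRNA cells with metformin average -0.91.

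Passenger strands of the same hairpins were looked at next, since they share a precursor with the guides. Of 9 passenger strands on the array, 6 were not detected on any array. miR-30a* was detected on 2 of 3 arrays of control shRNA cells with vehicle, at 4.92 and 7.98, and nowhere else. miR-30c-1* and miR-30c-2* had the opposite distribution to their guide. miR-30c-1* entered the test through control shRNA cells with metformin alone, so a higher value there was partly fixed by the detection filter. miR-30c-1* had 2.47 and 2.81 on 2 of 3 arrays of Dicer shRNA cells with metformin, both under the floor, and 3.83, 4.33 and 6.04 in control shRNA cells with metformin. It was not detected on any vehicle array, and its bound in control shRNA cells was at least 1.54-fold higher with metformin. The change there was 0.63 and lay at 0.06 to 2.61 over the other scalings, and no p is given, for the reason above. In that comparison 47.6% of the 208 were called higher, and the 10 viral probes changed by 0.86 to 3.21. miR-30c-2* had 4.80 on 1 array of Dicer shRNA cells with metformin, and 4.06 and 4.25 on 2 arrays of control shRNA cells with metformin. The miR-30c guide was detected in control shRNA cells with vehicle alone.

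The precursor on chromosome 1 shows both strands of miR-30c. It lies at chr1:40757284-40757372 on the plus strand (GRCh38.p14), is 89 bases long, and carries the guide and then the passenger strand in capitals.
MIR30C1: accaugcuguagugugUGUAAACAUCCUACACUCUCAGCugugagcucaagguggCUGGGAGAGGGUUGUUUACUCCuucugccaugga
The detected passenger strands are set below each other with bases 2 to 8 in capitals.
miR-30c-1*: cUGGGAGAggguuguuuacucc
miR-30c-2*: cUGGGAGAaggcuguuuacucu
miR-30a*: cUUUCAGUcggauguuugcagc
The 2 miR-30c passenger strands share their first 8 bases and hold 8 and 7 guanines each, against 2 in their common guide. The miR-30a* strand holds 6.

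A search of the RefSeq mature strands for the 7-base miR-30 and miR-26 seeds found 2 further names, both with the miR-26 seed. miR-4465 is not among the array names used here. miR-1297, at chr13:54311981-54311997 on the minus strand, shares its first 15 bases with miR-26b.
miR-1297: uUCAAGUAauucaggug
miR-1297 was detected on 1 of the 12 arrays, in Dicer shRNA cells with metformin, with a scaled signal of 4.38, and miR-26b itself on none.

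Other MYC-repressed microRNAs were counted beside the families. All 28 names of that list are on the array, and 22 were tested. In Dicer shRNA cells with vehicle 22 of the 22 were lower (13 of 22 after hur scaling), by 3.56 ± 0.40 for let-7a, which targets RAS mRNAs. let-7a was detected on 2 of 3 arrays of those cells, so its size rests partly on the floor. Under metformin 7 were higher and none lower in Dicer shRNA cells (6 and 1 after hur scaling). Among them was miR-29a at 3.25 ± 0.18, detected on 1 of 3 control shRNA arrays, so its size rests partly on the floor. Another 9 were detected in neither group. Those 9 entered the test through the vehicle groups, so the counts of this list are partly fixed by the filter. Over all 208 tested, 38.0% were lower with vehicle and 13.9% higher with metformin. With metformin 11 of 22 were lower in Dicer shRNA cells (median -0.91; over all 208, 18.3%) and 22 of 22 in control shRNA cells (median -4.48; over all 208, 40.4%). After hur scaling these counts were 5 and 17, with 1 higher in each line. Over all 208 the medians of those metformin changes were 0.00 in Dicer shRNA cells and 0.52 in control shRNA cells. Within this list the largest changes with metformin in control shRNA cells were -6.27 ± 0.18 for miR-29a, which targets collagen mRNAs, and -6.24 ± 0.34 for miR-125b, both detected on 1 of 3 metformin arrays. miR-15b, which targets the survival factor BCL2, was at least 67.4-fold lower. The 4 list members detected on all arrays, miR-22, miR-23a, miR-24 and miR-100, had a median of -4.48 in that comparison, against -1.87 for miR-30a and -0.95 for miR-30d.

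MicroRNAs that MYC induces, from the miR-17/92 and related clusters, were also counted. Of 10 tested, 10 were lower in Dicer shRNA cells with vehicle (median -2.33; 6 of 10 after hur scaling), against 38.0% of all 208. With metformin 4 of 10 were lower in Dicer shRNA cells, against 18.3% of all 208, and 10 of 10 in control shRNA cells (median -3.80; 7 of 10 after hur scaling), against 40.4%. Under metformin 2 of 10 were higher in Dicer shRNA cells, against 13.9% of all 208, miR-25 by 2.48 ± 0.17 and miR-92a by 0.83 ± 0.14 (1 of 10 higher and 1 lower after hur scaling). miR-25 was detected on 1 of 3 control shRNA arrays with metformin, so its size rests partly on the floor. The 6 of 10 detected in neither metformin group entered the test through the vehicle groups, so these counts too are partly fixed by the filter.

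The microRNAs whose log2 signals followed the mean profile of the 6 tested members most closely over the 12 arrays were miR-146a (Pearson r 0.99), miR-27a (0.98), miR-19b (0.98), miR-199a-5p (0.98), miR-125a-5p (0.97) and let-7c (0.97). The points share slides and arrays, and all 6 microRNAs were at the floor on part of the arrays, detected on 6 to 9 of the 12, so the values are a description only.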

How the data were processed

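Total RNA of 12 SUM159 samples was measured with Cy3 on 1-colour Agilent arrays, per the labels. The deposited array files give each name a total gene signal, which is a linear intensity, beside a stated error and a flag for detection, per the file headers. An undetected name is listed at 0.1. Agilent Feature Extraction 9.1 wrote them, per the submitters' processing notes. How background was treated is not stated. The deposited series matrix holds log2 values with 0 where undetected. Its direction follows the array signal, and its normalization and centring are unknown. Column medians (log2) were 3.19, 3.54 and 3.61 in Dicer shRNA and 3.65, 3.56 and 3.75 in control shRNA cells with metformin, and 3.58, 3.47 and 3.42 in Dicer shRNA and 3.95, 4.06 and 4.02 in control shRNA cells with vehicle. It was an alternative only and holds 5 of the 7 members.

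Groups came from the titles, with which characteristics and descriptions match but the source names of the metformin samples do not. Each array was scaled by the 75th percentile of 98 human microRNAs, those that no array missed (factors 0.836 to 1.15). Values under 3.01, the 5th percentile of detected signals on the median array, were set to it before log2. limma 3.58.1 (R 4.3.3) fitted 4 group means over 208 microRNAs (residual df 8, prior df 1.85). A group that is wholly at the floor has no spread, which makes errors of such microRNAs too small. An "at least" fold sets the brighter group's mean against a bound for the undetected one. The bound is taken on each array from the floor or, if higher, the dimmest detected signal. Such a fold holds for the main floor and scaling only. The fit was tested on simulated data with independent noise and changes planted in bright microRNAs. Those data did not mimic array-wide shifts or detection lost in a whole group, so the test does not bear on these. Ratios within an array were tested by exact permutation. Replicate numbers were not taken as pairs. Members, lists and tests were chosen with earlier results of these data known. All 7 members and their passenger strands are named, with up to 3 calls per list whose groups do not overlap, and the 6 microRNAs of the most similar profile. Alternatives covered scaling, floor, filter, series matrix, array weights, replicate block and left-out arrays. Sequences came from RefSeq (GRCh38.p14) by name (5 of 7 guides, 7 of 9 passenger strands). Python 3.11.15, pandas 2.3.3 and matplotlib 3.10.9 were used.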

Additional observations from a re-analysis of the deposited data

Results flagged for a closer look

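The knockdown difference differed between the metformin and the vehicle slide for 2 of the 7 members, the only ones in which both differences were measured (limma interaction term, Benjamini-Hochberg over 208 microRNAs, 3 arrays per group). The difference under metformin minus that under vehicle was 1.58 ± 0.14 for miR-30a (adjusted p 6.0e-06) and 0.88 ± 0.13 for miR-30d (adjusted p 2.1e-04), though hur scaling gave -0.89 and -1.60, and quantile normalization gave -0.026 for miR-30d. For each of them the Dicer shRNA arrays lay above all control shRNA arrays with metformin and below all of them with vehicle. On each slide 68.4% of the 98 microRNAs detected on all arrays had knockdown groups that did not overlap. The interaction term was 2.36 for miR-26a, 2.24 for miR-30e and 1.02 for miR-30c, but the metformin arrays detected none of these 3. Their values only repeat the vehicle slide with the sign turned and are no measured difference between slides. Of all 208 microRNAs 76.4% were called in this contrast.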

How the results depend on the processing

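Scaling mattered most. The median change of the 98 microRNAs moved by -1.65 (viral probes) to 3.29 (hur features) for metformin in control shRNA cells, and by -0.85 to 0.73 for the knockdown with vehicle. Relative to that median, miR-30a was at -2.80 to -2.69 and -0.95 to -0.90 in those comparisons with each scaling that only shifts arrays. Such a scaling cannot move these differences except through the floor, so their sameness is no check. After quantile normalization miR-30a was at -2.33 and -0.78. Scaling to the hur features was chosen after seeing the data. It turned miR-30a and miR-30d to 0.16 and 0.21 (knockdown, vehicle), -0.73 and -1.39 (knockdown, metformin), 1.52 and 2.44 (metformin, control shRNA), 0.63 and 0.84 (metformin, Dicer shRNA) and -0.89 and -1.60 (interaction), and the slide average of miR-30a to -0.29. Quantile normalization turned miR-30d to 0.0042, -0.021, 0.19, 0.16 and -0.026 in the same order of comparisons. Median scaling turned miR-30d under metformin to -0.075 and the slide average of miR-30a to -0.21. The series matrix turned the metformin changes in Dicer shRNA cells to 0.33 (miR-30a) and 0.54 (miR-30d). The cause was not tested.

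Calls over all microRNAs numbered 124 (knockdown, vehicle), 81 (knockdown, metformin), 106 (both slides), 183 (metformin, control shRNA), 51 (metformin, Dicer shRNA) and 159 (interaction). Testing only those detected on all arrays gave 64, 44, 27, 86, 28 and 72, since fewer were tested. The 81 became 129 (median), 51 (viral), 151 (hur) and 126 (array weights), and the 51 became 100 (hur), 82 (array weights) and 19 (only the 6 arrays compared). By direction, with higher calls first, the main splits were 45 and 79, 29 and 52, 32 and 74, 99 and 84, 13 and 38, and 77 and 82. Viral scaling gave 14 and 119, 36 and 15, 15 and 82, 36 and 124, 7 and 42, and 115 and 20. Hur scaling gave 67 and 39, 13 and 138, 4 and 101, 139 and 45, 87 and 13, and 40 and 137. Quantile normalization gave 61 and 59, 35 and 47, 55 and 52, 110 and 79, 32 and 26, and 73 and 86.

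With 1 array left out, counts ran from 118 to 130, 62 to 94, 92 to 114, 174 to 181, 32 (without Dicer shRNA, metformin replicate 3) to 71, and 145 to 164. No member changed sign. Without control shRNA, vehicle replicate 1, miR-30b passed (-0.24) in the knockdown with vehicle and in the metformin comparison of control shRNA cells. It did not pass in the average over both slides (-0.12) or in the interaction. With the replicate number as a block, counts were 124, 83, 102, 182, 47 and 159, and no member's call changed. Same-numbered arrays correlated with r from -0.18 to 0.32, over 0.1 in 7 of 18 cases. Differently numbered arrays were not compared, so whether the numbers pair the samples is not settled. The main fit did not take them as pairs. The 75th percentile over all human names was not run, since it is 0.1 on every array. Weak signal over background limits miR-30b, miR-30c and miR-30e.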
